A study of Homo sapiens with 9 samples.

Results

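Genes of cholesterol and fatty acid synthesis were examined in a human colorectal carcinoma line and in lines cloned from it. The set is a list of gene names. It holds 29 symbols, namely 18 enzymes of sterol synthesis, 7 enzymes of fatty acid synthesis and a group of 4 made up of the regulators INSIG1, SREBF1 and SREBF2 and the sterol carrier STARD4. A probe set, the group of short probes that reports a transcript on an Affymetrix array, was taken for a member when the annotation gave it exactly that symbol and no other. Of the 29 members, 26 were measured among 13598 genes tested in all: 16 sterol enzymes, 6 fatty acid enzymes and all 4 of the others. They had 59 such probe sets, of which 53 passed the filter on dim signals, a value over the array's median in 3 or more of the 9 hybridisations. The passing set with the highest mean over all 9 arrays stood for the gene. CYP51A1 and FADS1 occur only on probe sets with several symbols and FDFT1 was not found in the annotation used here, so these 3 members were not analysed here.

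The parent is SW480, an established colorectal carcinoma line, here carrying EGFP (SW480/EGFP). SCP51 and SCP58 are sublines of SW480/EGFP, each the offspring of a single cell and therefore 1 clone, and all 3 lines share the EGFP-bearing background. After surgical implantation of tumour cells at the primary site in mice, SCP51 was labelled high and SCP58 low in metastatic potential. The arrays were made from RNA of cultured cells in RPMI medium with fetal bovine serum, which itself supplies lipoprotein cholesterol and fatty acids, so no animal tissue was measured. Every group has 3 arrays, labelled as biological replicates, with nothing said on how far back the cultures were separate, so a p-value here speaks only to the scatter among these arrays. As each metastatic class is 1 clone, every difference given here lies between lines.

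Cells make cholesterol from acetyl-CoA through mevalonate and isoprenoid units, then squalene, which is folded into lanosterol and trimmed in a series of steps to cholesterol. Fatty acids start from the same acetyl-CoA, which ACLY releases from citrate, ACACA carboxylates and FASN joins into palmitate. Most of these genes are targets of the transcription factors SREBP1 and SREBP2, encoded by SREBF1 and SREBF2. When membrane sterol is plentiful, INSIG1 helps to hold the SREBPs in the endoplasmic reticulum, and when sterol falls they are cut, move to the nucleus and raise the genes of both arms, INSIG1 included. Colorectal tumours are known for active lipid synthesis, and these genes also answer to lipids in the medium.

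Array medians lay between a signal of 41.2 and 44.3, in the arbitrary linear units of the deposited values, and 9 arrays limit the precision. SCP51 replicate 1 differed most from the rest: across genes, which are not independent replicates, it correlated with other arrays at 0.891 to 0.911, while pairs of the other 8 reached 0.945 to 0.979. The labelled tissue was checked with 9 colon epithelial markers. Of these, EPCAM, KRT8, KRT18, KRT19, CDH1, VIL1 and CDX2 were above the array median on all 9 arrays, CDH17 on 3 and LGALS4 on none. The summed signal of the epithelial list was 18868 to 24460. That of 6 fibroblast markers lay between 280 and 345 over all arrays (1 of the 6 above the median on every array), that of 4 measured blood and immune markers between 231 and 334 (2 of 4), that of 4 adipocyte markers between 140 and 205 (1 of 4) and that of 4 hepatocyte markers between 128 and 150 (1 of 4). No marker of these lists, or of a proliferation list of 5 genes whose sum was 6429 to 8278, was called in any comparison. A gene was called when its p from limma, with Benjamini-Hochberg adjustment across every gene in the fit, was under 0.05.

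**Figure D1:**
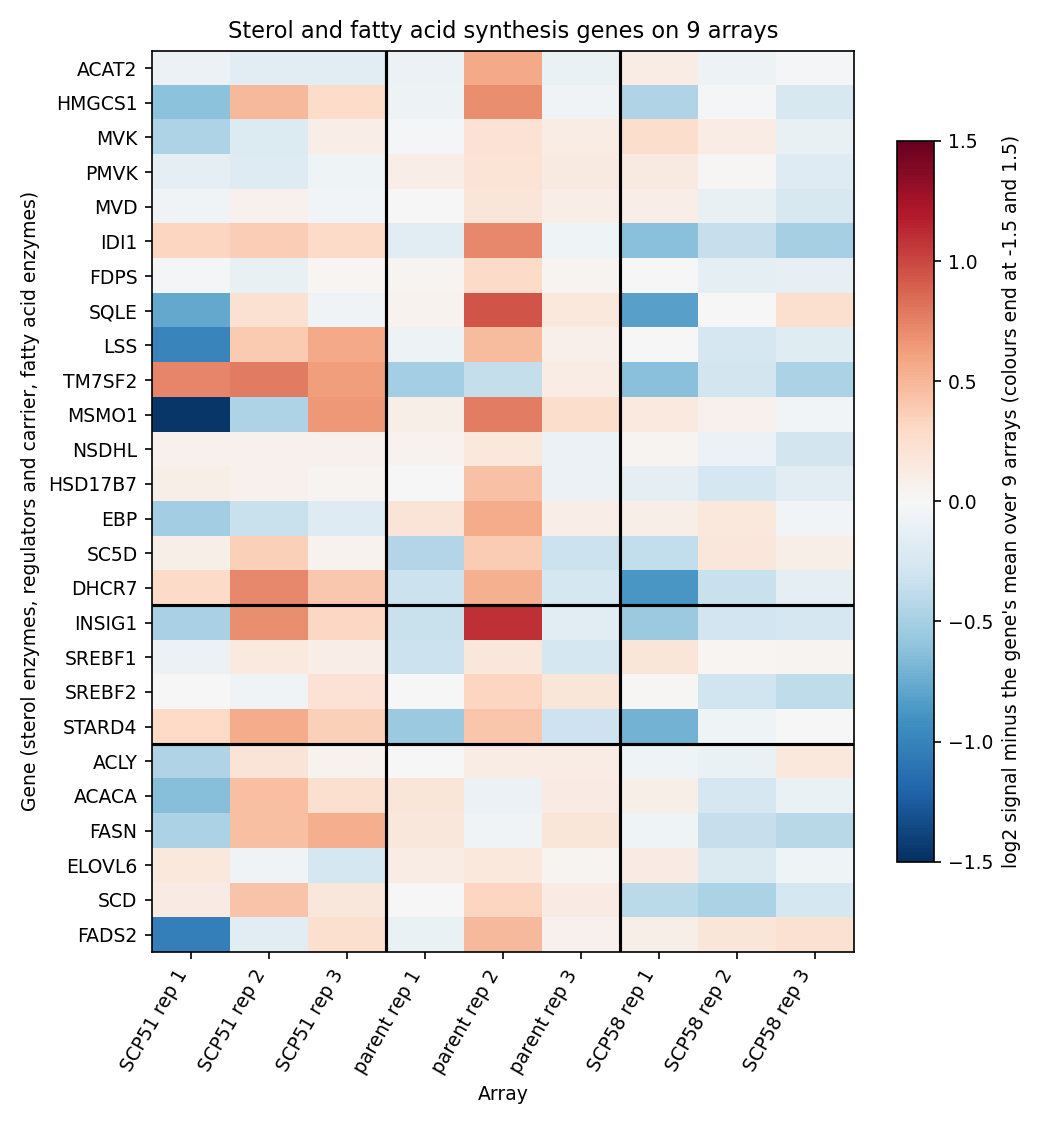
Colours show, for each of 26 measured genes (rows) on each of 9 arrays (columns), the log2 signal minus that gene's mean over the 9 arrays, with black lines between groups of arrays and between sterol enzymes, regulators with carrier, and fatty acid enzymes. TM7SF2 is high on the 3 SCP51 arrays, and the parent replicate 2 column is the highest of the 9 for 15 of the 26 genes.

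Between the highly and the poorly metastatic line, TM7SF2 and SCD were higher in SCP51, and no member was called lower. TM7SF2 encodes a sterol C14 reductase, which acts after lanosterol on the way to cholesterol. Its signals were 281, 290 and 263 in SCP51 and 110, 140 and 122 in SCP58. The lowest SCP51 array was thus well above the highest SCP58 array. SCP51 exceeded SCP58 by 1.17 ± 0.17 log2 units (SE, n = 3 in each group; adjusted p from limma = 0.0106), a 2.25-fold higher level in SCP51, and the adjusted p was 0.00775 to 0.0498 over 22 alternative analyses. SCD encodes stearoyl-CoA desaturase, which puts the double bond into palmitate and stearate that makes the common monounsaturated fatty acids. Its signals were 2523, 3117 and 2621 in SCP51 against 1757, 1670 and 1933 in SCP58, again without overlap. This was a log2 difference of 0.62 ± 0.12 (SE, n = 3 in each group; limma, adjusted p = 0.0281), or 1.54-fold. This call was lost without SCP51 replicate 2 (adjusted p = 0.0891), parent replicate 3 (0.0610) or SCP58 replicates 1, 2 or 3 (0.0704, 0.119 and 0.0643). It was also lost when only the arrays of SCP51 and SCP58 were fitted (0.0748) and with replicate numbers as a block (0.0579), although the difference stayed between 0.53 and 0.68 when single arrays were left out. In bulk RNA of this kind, a change in the share of cells that express a gene and a change in the RNA per cell cannot be told apart.

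The 2 called members are 7.69% of the 26, beside 4.08% of all genes called in this comparison. The 3 arrays of SCP51 lay wholly above the 3 of SCP58 for 7 members, or 26.9%, beside 7.91% of all genes, and wholly below them for 2 members, or 7.69%, beside 17.2% of all genes. The first 7 were TM7SF2, SCD, IDI1, DHCR7, STARD4, HSD17B7 and NSDHL, and the other 2 were ACAT2 and EBP. Of the 26 differences 17 were above 0, against 34.97% of all genes, and the median difference was 0.12 beside -0.11 for all genes. The median of all genes was -0.05 after quantile normalization and -0.04 after centring on the 75th percentile, and 19 members were above 0 under either. These counts describe the members, which share regulators, and are no test of the set.

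The promoters of 4 members are shown. TM7SF2, SCD and INSIG1 are the genes the values turn on. Among members with a promoter in RefSeq's table, SREBF2 alone had the full sterol motif searched. Each run is 300 bases, from 250 before to 50 after the annotated start, read 5′ to 3′ in the direction of the gene from RefSeq's GRCh38.p14 table. All 4 lie on the plus strand, TM7SF2 at chr11:65111622-65111921, SCD at chr10:100346983-100347282, INSIG1 at chr7:155297628-155297927 and SREBF2 at chr22:41832855-41833154. Capitals mark, on either strand, the box CCAAT bound by NF-Y, the GC box GGGCGG bound by Sp1-like factors, and TCACNCCAC, a form of the sterol regulatory element bound by SREBPs.
TM7SF2: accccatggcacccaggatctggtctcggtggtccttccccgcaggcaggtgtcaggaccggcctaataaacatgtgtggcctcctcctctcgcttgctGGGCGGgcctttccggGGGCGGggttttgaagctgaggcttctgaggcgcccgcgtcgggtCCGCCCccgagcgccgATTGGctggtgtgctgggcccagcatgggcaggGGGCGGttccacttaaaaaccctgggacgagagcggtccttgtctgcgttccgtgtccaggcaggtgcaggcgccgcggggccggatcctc
SCD: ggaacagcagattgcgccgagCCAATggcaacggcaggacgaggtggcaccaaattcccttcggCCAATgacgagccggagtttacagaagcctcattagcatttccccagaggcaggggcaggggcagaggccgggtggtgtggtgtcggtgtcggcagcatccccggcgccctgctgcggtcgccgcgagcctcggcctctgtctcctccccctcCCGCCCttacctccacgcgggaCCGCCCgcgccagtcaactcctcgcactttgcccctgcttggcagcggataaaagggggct
INSIG1: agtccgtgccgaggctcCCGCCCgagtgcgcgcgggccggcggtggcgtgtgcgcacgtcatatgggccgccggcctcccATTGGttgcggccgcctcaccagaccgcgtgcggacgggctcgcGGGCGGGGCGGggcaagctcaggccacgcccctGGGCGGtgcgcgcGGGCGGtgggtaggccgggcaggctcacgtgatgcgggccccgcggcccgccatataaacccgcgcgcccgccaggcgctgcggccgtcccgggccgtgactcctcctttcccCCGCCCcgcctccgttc
SREBF2: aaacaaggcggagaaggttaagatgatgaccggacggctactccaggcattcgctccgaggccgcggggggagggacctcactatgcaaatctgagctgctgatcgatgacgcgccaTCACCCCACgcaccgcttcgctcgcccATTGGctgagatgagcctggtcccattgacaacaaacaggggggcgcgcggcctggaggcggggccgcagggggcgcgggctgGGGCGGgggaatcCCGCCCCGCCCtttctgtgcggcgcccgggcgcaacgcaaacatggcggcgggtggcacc
TM7SF2 holds 1 CCAAT and 4 GC boxes, SCD 2 and 2, INSIG1 1 and 6, and SREBF2 1 and 3 beside its single TCACNCCAC. Neighbouring GC boxes overlap each other in INSIG1 and in SREBF2. The table held promoters for 23 of the 26 measured members, and none for SQLE, ACAT2 and FASN, which were not searched. Of the 23, 20 had at least 1 CCAAT (87.0%, beside 39.7% of the 27305 genes in the table), 22 had a GC box (95.7%, beside 48.3%) and 1, SREBF2, had TCACNCCAC (beside 1.39%). A match is a description of the letters in this window and was not tied to any difference between the lines.

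Of the remaining members wholly higher in SCP51 than in SCP58, IDI1 belongs to the mevalonate arm. DHCR7, HSD17B7 and NSDHL act past squalene, and STARD4 is the carrier. IDI1, the isomerase that makes the isoprenoid unit dimethylallyl diphosphate, had signals of 1150, 1194 and 1128 in SCP51 and 596, 723 and 655 in SCP58. IDI1 thus differed by 0.82 ± 0.22 (SE, n = 3 in each group; limma, adjusted p = 0.0741), just short of the threshold. It passed without parent replicate 2 (0.0165), an array that is in neither group but enters the shared estimate of spread, when only the arrays of SCP51 and SCP58 were fitted (0.0474) and after centring on the 75th percentile (0.0482). DHCR7, whose enzyme makes cholesterol from its immediate precursor, had signals of 504, 684 and 550 against 226, 328 and 374, at 0.93 ± 0.27 (adjusted p = 0.0981). STARD4, which carries sterol between membranes, had 282, 336 and 293 against 141, 220 and 231, at 0.66 ± 0.27 (adjusted p = 0.215). HSD17B7 and NSDHL, which act in the removal of the methyl groups at C4 of the sterol ring, differed by 0.25 and 0.17 (adjusted p = 0.390 and 0.460). In both genes the SCP51 arrays lay close together, at 324 to 336 for HSD17B7 and 245.8 to 246.6 for NSDHL. The highest SCP58 array read 287 for HSD17B7 and 243.0 for NSDHL, so NSDHL separated by a narrow margin. A dimmer NSDHL set overlapped, at 0.07 ± 0.25, with 82.4, 165 and 164 in SCP51 and 125, 124 and 125 in SCP58.

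EBP, the isomerase that shifts the double bond of the sterol ring from C8 to C7, went the other way. Its signals were 583, 663 and 729 in SCP51, 951, 1229 and 894 in the parent and 889, 929 and 809 in SCP58, so SCP51 lay below both other groups without overlap. The log2 differences were -0.41 ± 0.15 to SCP58 and -0.63 ± 0.15 to the parent (SE, n = 3 in each group; limma, adjusted p = 0.164 and 0.0681), neither past the threshold. A second EBP probe set read 738 and 656 on SCP51 replicates 2 and 3 and 34.1 on replicate 1, against 826 to 1034 on the other 6 arrays, and another, dimmer set had differences of 0.11 and -0.21. ACAT2, the cytosolic thiolase that makes acetoacetyl-CoA, read 426 to 449 on the SCP51 arrays and 451 to 513 on those of SCP58, with a log2 difference of -0.14 ± 0.18 (adjusted p = 0.698).

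**Figure D2:**
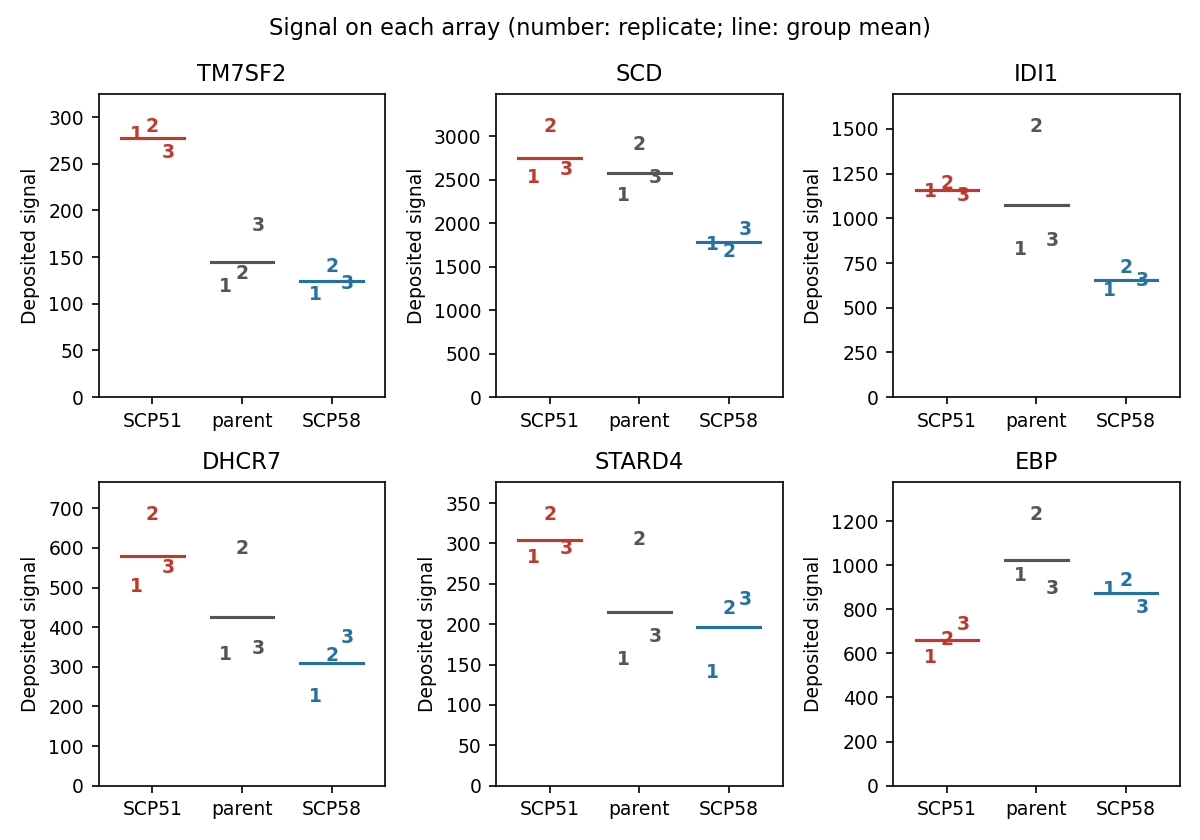
Deposited signal (linear scale from 0, arbitrary units) of TM7SF2, SCD, IDI1, DHCR7, STARD4 and EBP in SCP51, the parent and SCP58; each digit is an array at its replicate number and each line a group mean. SCP51 lies apart from both other groups for TM7SF2 and EBP, SCP58 lies below both for SCD and IDI1, and parent replicate 2 lies above the other parent arrays in all panels but TM7SF2.

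No early step of the mevalonate arm was called between SCP51 and SCP58 in the fit of all 9 arrays. HMGCS1, which makes HMG-CoA, had 380, 811 and 702 in SCP51 and 424, 574 and 492 in SCP58, with overlap, at 0.28 ± 0.32. Its other probe set stood at 0.98 ± 0.57 (adjusted p over all sets = 0.397). The kinases MVK and PMVK stood at -0.27 ± 0.17 and -0.12 ± 0.12, the decarboxylase MVD at 0.08 ± 0.12 and FDPS, which makes farnesyl diphosphate, at 0.05 ± 0.11 (SE, n = 3 per group), with limma adjusted p from 0.404 to 0.834 for these 5 genes. The 95% interval of the difference ran from -0.20 to 0.29 for FDPS and from -0.39 to 0.15 for PMVK, whereas that of HMGCS1 was wider, from -0.43 to 1.004. Past squalene, LSS, which cyclises the squalene epoxide to lanosterol, and MSMO1, the C4-methyl sterol oxidase, had intervals from -0.71 to 0.98 and from -1.51 to 0.54. Their width came with the spread of the SCP51 arrays, which read 160, 416 and 472 for LSS and 292, 582 and 1262 for MSMO1. SC5D, the desaturase before DHCR7, stood at 0.20 ± 0.24.

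The regulators were not called in any comparison in the fit of all 9 arrays with equal weight. INSIG1 had signals of 209, 477 and 365 in SCP51, 232, 626 and 261 in the parent and 199, 241 and 247 in SCP58. SCP51 replicate 1 and parent replicate 1 lay within the SCP58 range, so all 3 groups overlapped, and the difference between SCP51 and SCP58 was 0.54 ± 0.41 (SE, n = 3 in each group; limma, adjusted p = 0.480). SREBF1 read 134 to 158 in SCP51, 113 to 160 in the parent and 145 to 161 in SCP58, with differences of -0.03, 0.20 and 0.22 for SCP51 against SCP58, SCP51 against the parent and SCP58 against the parent. SREBF2 read 246, 237 and 284 in SCP51, 245, 306 and 278 in the parent and 249, 199 and 188 in SCP58. Its differences were 0.28 ± 0.15 between the clones and -0.39 ± 0.15 between SCP58 and the parent (limma adjusted p = 0.334 and 0.516), and the latter became 0.021 when its probe sets were averaged. Another SREBF2 set read 303, 202 and 187 in SCP51 and 142, 144 and 157 in SCP58, without overlap. It stood at 0.61 ± 0.23 between the clones (limma, adjusted p over all sets = 0.198), and a further set stood at 0.00 ± 0.94. The signal of these genes measures their RNA, while the SREBP proteins act after cleavage, which arrays do not measure.

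Among the fatty acid enzymes, SCD was the only member called in the fit of all 9 arrays with equal weight. FASN, the fatty acid synthase, had 286, 543 and 584 in SCP51 and 381, 315 and 298 in SCP58, at 0.45 ± 0.26 (SE, n = 3 in each group; limma, adjusted p = 0.362). It was called higher in SCP51 with array weights and without SCP51 replicate 1. ACACA, acetyl-CoA carboxylase, had 263, 558 and 481 against 435, 344 and 382, at 0.10 ± 0.26. In both genes SCP51 replicate 1 was the lowest of all 9 arrays and the other SCP51 arrays were the highest 2. ACLY, ELOVL6, which lengthens palmitate, and FADS2, the desaturase that starts the synthesis of polyunsaturated fatty acids, stood at -0.07 ± 0.16, 0.00 ± 0.14 and -0.48 ± 0.30. FADS2 read 38.9 on SCP51 replicate 1, under that array's median signal of 43.3, and 71.3 to 93.9 on the other SCP51 arrays.

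**Figure D3:**
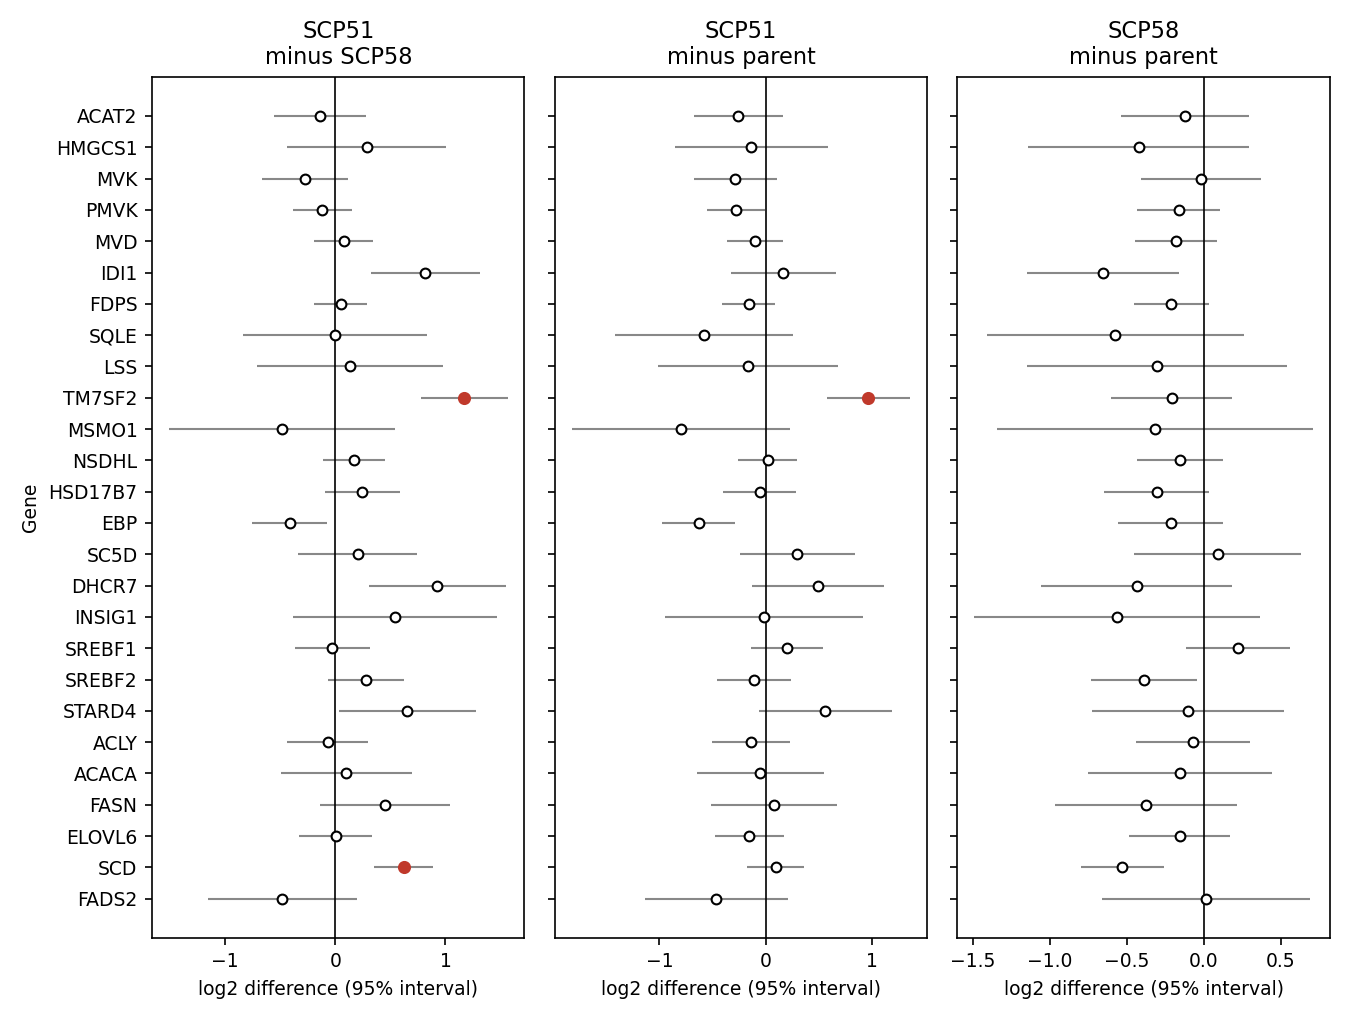
Log2 differences of the 26 measured genes (points) with their 95% limma intervals (bars) for SCP51 minus SCP58, SCP51 minus the parent and SCP58 minus the parent; filled red points passed an adjusted p of 0.05. TM7SF2 is filled in the first and second panels and SCD in the first, and 23 of 26 points lie below 0 in the third.

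Against the parent, TM7SF2 was the only member called in SCP51. The parent arrays read 119, 133 and 184, all below the SCP51 arrays, and the log2 difference was 0.96 ± 0.17 (SE, n = 3 in each group; limma, adjusted p = 0.0235). This call was lost without SCP51 replicate 2 (adjusted p = 0.0879), parent replicate 1 (0.0910) or parent replicate 2 (0.0996), and with array weights (0.0522). It was also lost when only these 6 arrays were fitted (0.0744) and when replicate numbers served as a block (0.0651). The call is 3.85% of the members, beside 2.96% of all genes. TM7SF2 alone lay wholly above the parent (3.85% of members, beside 9.5% of all genes), while EBP, PMVK and FDPS lay wholly below it (11.5%, beside 18.6% of all genes). Of the 26 differences 9 were above 0 and 17 below, with a median of -0.11 that hardly differed from the -0.10 of all genes. After quantile normalization 12 were above 0 and after centring on the 75th percentile 11. SCD, at 2316, 2905 and 2527 in the parent, overlapped SCP51 at 0.09 ± 0.12, with a 95% interval from -0.18 to 0.36. Each group enters 2 of the 3 comparisons, so that the comparisons share arrays and their values are given side by side only.

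In SCP58 against the parent no member was called by limma, beside 0.14% of all genes. Of the 26 members 3 (IDI1, SREBF2 and SCD) had an unadjusted limma p under 0.05, beside 1169 of all 13598 genes tested. With array weights, which give less weight to arrays that scatter more, 3 members were called lower in SCP58, namely SCD (adjusted p = 0.00903), SREBF2 (0.0315) and FASN (0.0402), in a fit that called 9.94% of all genes. No member lay wholly above the parent in SCP58, beside 9.41% of all genes. Wholly below it lay 5 members, or 19.2%, beside 7.58% of all genes: SCD, IDI1, FASN, HSD17B7 and FDPS. SCD stood at -0.53 ± 0.12 (SE, n = 3 in each group; limma, adjusted p = 0.237), with every SCP58 array at or under 1933 and every parent array at or over 2316. IDI1 read 828, 1516 and 878 in the parent and stood at -0.66 ± 0.22 (adjusted p = 0.415), or -0.38 without parent replicate 2. FASN stood at -0.38 ± 0.26, HSD17B7 at -0.31 ± 0.15 and FDPS at -0.21 ± 0.11. Without parent replicate 2 the last pair stood at -0.14 and -0.13. Of the 26 differences 23 were below 0, or 88.5%, beside 50.1% of all genes, with a median of -0.21 beside 0.00. Without parent replicate 2, 20 of 26 were below 0, beside 47.4% of all genes, and the median relative to all genes was -0.15 in place of -0.21.

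The parent group was not uniform for these genes. Its replicate 2 was the highest of the 3 parent arrays for 22 of the 26 members, or 84.6%, beside 42.7% of all genes, and the highest of all 9 arrays for 15 of them, or 57.7%, beside 12.6% of all genes. Relative to the mean of the other parent arrays its median deviation was 0.48 log2 units over the 16 sterol enzymes and 0.65 over the regulators and carrier, 0.07 over the 6 fatty acid enzymes and 0.03 over all genes. INSIG1 deviated by 1.35, STARD4 by 0.85, SQLE and IDI1 by 0.83, DHCR7 by 0.82, HMGCS1 by 0.77 and SC5D by 0.76, while ACACA and FASN lay at -0.24 and -0.23 and TM7SF2 at -0.15. The middle 90% of all genes on that array ran from -0.40 to 0.48. The median SD of the sterol enzymes within the parent was 0.30 log2 units, beside 0.13 over all genes, whereas in SCP58 it was 0.16 beside 0.17. The fit pools the spread of the 3 groups, so this scatter enters the SE of each gene in every comparison. The SD in SCP51, the parent and SCP58 was 0.61, 0.78 and 0.17 for INSIG1. It was 0.51, 0.48 and 0.56 for SQLE and 0.58, 0.44 and 0.22 for HMGCS1, so their wide intervals do not come from the parent alone. What set parent replicate 2 apart was not tested.

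SCP51 replicate 1 departed in another direction. Its fatty acid enzymes lay at a median of -0.77 relative to the other SCP51 arrays, beside -0.12 for all genes. This array was the lowest of the 9 for 4 of the 6 (ACLY, ACACA, FASN and FADS2). The same held for 9 of the 26 members (34.6%) and for 4355 of all 13598 genes (32.03%), beside 66.7% of the fatty acid enzymes. Low readings on this array were thus not confined to these enzymes, although their share was larger. Whether that share differs from that of all genes was not tested. FADS2 deviated by -1.07, ACACA and FASN by -0.98 each, and SCD by -0.18, while ELOVL6 was higher, at 0.31. The sterol enzymes split, with MSMO1 at -1.55, LSS at -1.47, HMGCS1 at -0.99 and SQLE at -0.85, but TM7SF2 at 0.02, IDI1 at -0.01 and NSDHL at 0.00. The middle 90% of all genes on this array was wide, from -1.54 to 0.55, and held all members but MSMO1.

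**Figure D4:**
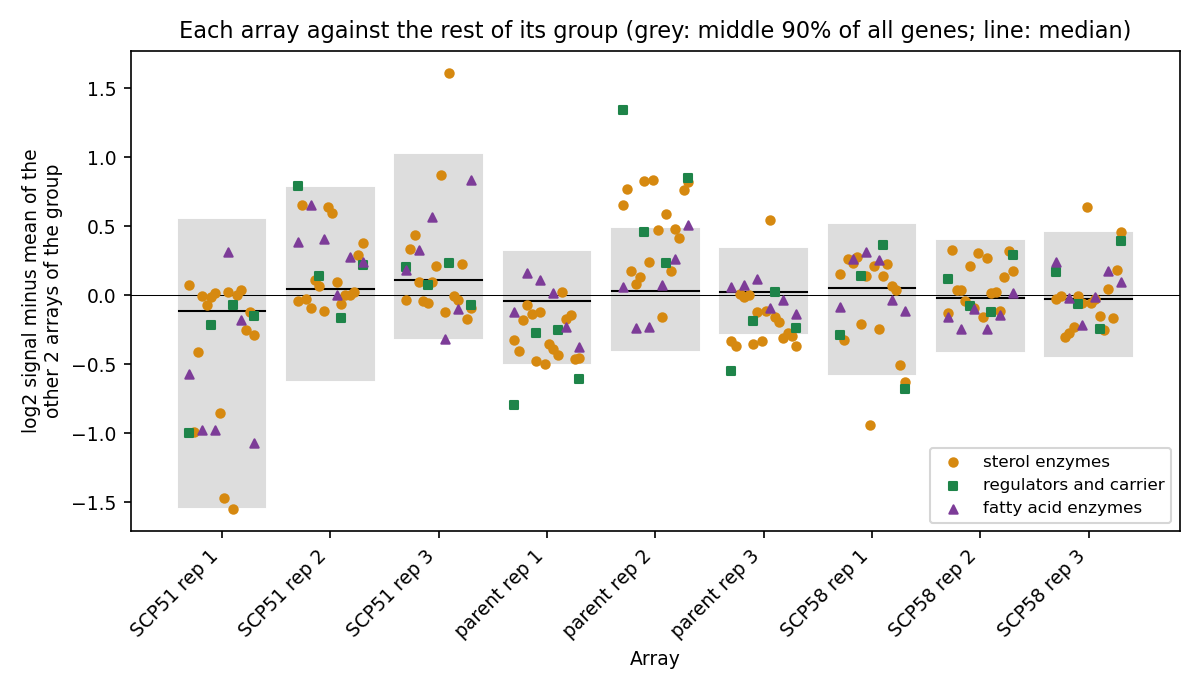
Each point is a measured gene on 1 array, as its log2 signal minus the mean of the other 2 arrays of its group (vertical axis), with sterol enzymes as orange circles, regulators and carrier as green squares and fatty acid enzymes as purple triangles; grey boxes hold the middle 90% of all 13598 genes and black lines their median. On parent replicate 2 the sterol enzymes sit above the median of all genes with 1 exception, TM7SF2, and on SCP51 replicate 1 several members lie near the lower edge of a wide box.

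With both of these arrays left out, an analysis added after the data were seen, 8 members were called higher in SCP51 than in SCP58 and none lower, beside 8.93% of all genes called. They were IDI1 (0.82, adjusted p = 0.00926), SCD (0.68, 0.0105), TM7SF2 (1.16, 0.0160), FASN (0.77, 0.0182), INSIG1 (0.87, 0.0215), DHCR7 (1.02, 0.0303), LSS (0.63, 0.0325) and HMGCS1 (0.61, 0.0490), each as a log2 difference with its limma adjusted p. The groups then hold 2 arrays for SCP51 and for the parent and 3 for SCP58. TM7SF2 was no longer called against the parent in that analysis (0.90, adjusted p = 0.0806), beside 3.11% of all genes. Arrays left out once their values are known can lower the spread of the very genes examined, so these calls are less firm than their p-values read.

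Where a gene had several probe sets, they did not always agree. Each of the 53 member probe sets was also tested by itself, adjusted over 29166 sets. Of these, 2 were called for SCP51 against SCP58 (beside 3.35% of all sets), those of TM7SF2 and SCD named above, 1 for SCP51 against the parent (TM7SF2, beside 1.89%) and 0 for SCP58 against the parent (beside 0.134%). Without SCP51 replicate 3, the dimmer of the FADS2 sets was called lower in SCP51 than in either other line. With all arrays its difference was -0.79 ± 0.35 to SCP58 and -0.91 ± 0.35 to the parent (adjusted p = 0.261 and 0.232), with signals of 19.8, 33.9 and 63.3 in SCP51 and 53.5 to 68.1 on the other 6 arrays. The other 3 SCD sets stood at 0.25, 0.58 and 1.18 between SCP51 and SCP58, in the same direction but with SE of 0.25 to 0.53, and averaged over its sets SCD was at 0.66 (adjusted p = 0.276). Both DHCR7 sets gave like values, 0.93 and 0.84, and the 3 INSIG1 sets 0.58, 0.54 and 0.75. The 3 IDI1 sets gave 0.82, 0.61 and 0.25. TM7SF2, STARD4, FASN and HSD17B7 had a single passing set each. The sets used for IDI1 and HSD17B7 carry the suffix by which the array maker marks probes that can match other transcripts, so their signals may include near copies of these genes. Of 16 members with several sets, all sets had the same sign in 11 for SCP51 against SCP58, 6 for SCP51 against the parent and 11 for SCP58 against the parent.

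SQLE, the squalene epoxidase and a slow step of the pathway, lies at 8q24, where many genes were lower in SCP51. Its signals were 357, 710 and 583 in SCP51, 627, 1161 and 677 in the parent and 343, 610 and 712 in SCP58, with wide overlap. SQLE stood at 0.00 ± 0.37 between SCP51 and SCP58 (SE, n = 3 in each group; limma, adjusted p = 0.997), with a 95% interval from -0.84 to 0.83. Its dimmer passing sets stood lower in this comparison, at -0.66 ± 0.67 and -0.13 ± 0.27. The former read 35.6, 237 and 193 in SCP51. The 10 nearest measured genes on each side had a median of -0.42, with 19 of 20 below 0 and 3 called lower, beside a median of -0.11, 65.03% below 0 and 4.08% called in either direction among all genes. Those 3, TMEM65, MTSS1 and LRATD2, were named after their values were seen. The nearest on either side were ZNF572 at -0.21 ± 0.15 and WASHC5 at -1.09 ± 0.45. Against the parent SQLE stood at -0.58 ± 0.37 in SCP51, beside a median of -0.43 for its neighbours, and at -0.58 ± 0.37 in SCP58, beside -0.06. The dimmer SQLE sets stood at -1.17 ± 0.67 and -0.59 ± 0.27 in SCP51 against the parent. In SCP58 against the parent they stood at -0.52 ± 0.67 and -0.46 ± 0.27. The SE of SQLE is too large to tell it from its neighbours in either comparison with SCP51.

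**Figure D5:**
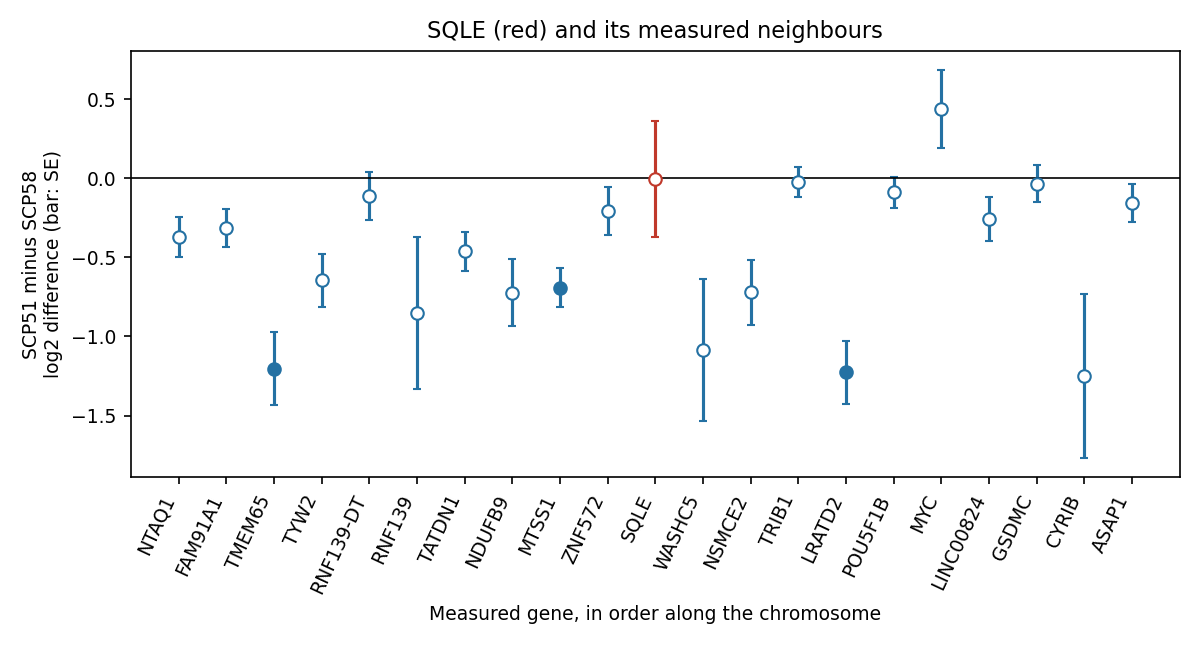
Log2 difference of SCP51 minus SCP58 (vertical axis; bars are 1 SE) for SQLE, in red, and the 10 measured genes on each side in their order along the chromosome; filled points were called. Of the 20 neighbours 19 lie below 0, SQLE lies at 0.00 by its brightest probe set, and its SE bar reaches values of both signs.

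Genes around the pathway were counted from lists of related functions, beside 4.08%, 2.96% and 0.14% of all genes called in SCP51 against SCP58, SCP51 against the parent and SCP58 against the parent. Of 14 measured genes of sterol transport and storage, 1 was called higher and 1 lower in SCP51 than in SCP58. SCARB1, the receptor that takes up cholesterol from HDL, read 908, 1031 and 980 in SCP51, 842, 825 and 716 in the parent and 424, 300 and 323 in SCP58. SCP58 was thus the low line, at 1.495 ± 0.15 for SCP51 against SCP58 (SE, n = 3 in each group; limma, adjusted p = 0.00305, and under 0.05 in all 22 alternatives) and -1.20 ± 0.15 for SCP58 against the parent (adjusted p = 0.0307). The latter call was lost without SCP51 replicates 2 or 3 (0.0607 and 0.0679), parent replicates 1, 2 or 3 (0.222, 0.110 and 0.0971) or SCP58 replicates 2 or 3 (0.106 and 0.162). NPC2, which hands cholesterol out of lysosomes, was highest in SCP58, at 5293, 4232 and 4442 against 2735, 2853 and 3663 in SCP51 and 2394, 2660 and 2508 in the parent. Its difference between SCP51 and SCP58 was -0.60 ± 0.13 (adjusted p = 0.0400), lost in 12 of 22 alternatives with an adjusted p up to 0.126, among them leaving out any single array other than SCP51 replicates 1 and 3.

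Of 10 measured genes of SREBP processing and sterol sensing, 1 was called, MYLIP, an LXR target that drives the breakdown of lipoprotein receptors, lower in SCP51 than in SCP58 at -0.61 ± 0.13 (SE, n = 3 in each group; limma, adjusted p = 0.0423). Its signals were 122, 131 and 108 against 168, 204 and 180. This call was lost in 16 of 22 alternatives, with an adjusted p up to 0.162, and when any array other than SCP51 replicate 1 was left out. Of 13 measured genes of glycerolipid synthesis, 10 were above 0 between SCP51 and SCP58, beside 34.97% of all genes. Of the 13, 1 was called higher, beside 4.08% of all genes called in either direction: AGPAT5, an acyltransferase, at 1.06 ± 0.17 (adjusted p = 0.0156). Its signals were 2554, 3795 and 3100 against 1219, 1621 and 1694, and its call was lost without SCP58 replicate 2 (adjusted p = 0.0535) and when only the arrays of SCP51 and SCP58 were fitted (0.0693). Of 19 measured genes of fatty acid supply, elongation and activation, none was called between the clones by limma. An unadjusted p under 0.05 was found for 3 of the 19, beside 2900 of all 13598 genes tested. In the comparison of SCP51 with the parent the same list held 1 called gene, ACSL5, which activates fatty acids by joining them to coenzyme A. It read 92.0, 123 and 114 in SCP51 and 256, 199 and 290 in the parent. Its difference of -1.17 ± 0.19 passed (adjusted p = 0.0164), but not without parent replicates 1 or 3 (0.0722 and 0.0747). Of 11 measured genes of the isoprenoid branches, which use farnesyl and geranylgeranyl units for dolichol, ubiquinone and protein prenylation, none was called in any of the 3 comparisons by limma. Of the 11, 2, 1 and 2 had an unadjusted p under 0.05 in SCP51 against SCP58, SCP51 against the parent and SCP58 against the parent. Among all 13598 genes tested, 2900, 2668 and 1169 did so in the same order.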

How the data were processed

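The 9 arrays (3 groups of 3) carry biotin-labelled cRNA, per the labels' protocols. The deposited values are intensities, linear in scale, for 54675 probe sets. GCOS 1.4 is the software named in the submitters' processing notes. How the authors scaled these intensities, corrected background or summarised probes is not given in the sources used. Here, values below 1 (514) were set to 1 before log2, without rescaling. The 62 control sets were dropped; of the rest, 41091 carried 1 symbol, 1801 several and 11721 none, and 29166 passed the filter. Symbols were updated by Entrez identifier (99.9% found in RefSeq GRCh38.p14).

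A limma model (version 3.58.1, R 4.3.3) with 1 mean per group and trended variances was fitted to all 9 arrays and was tested on simulated data. Every adjusted p of the main comparisons comes from it, two-sided, with Benjamini-Hochberg adjustment across all features. An adjusted p given for an alternative comes from the model refitted under that setting. Members and lists were chosen with earlier results of these data known. Members called, then those whose groups did not overlap, were described in full; from the lists, called genes were named, and beside SQLE the nearest on each side. Alternatives changed the filter (none, 65th percentile), scaling (quantile, 75th percentile), offset (32 added), trend, array weights, probe set rule, arrays fitted, replicate block and threshold (0.01), or left out each array. Leaving out both SCP51 replicate 1 and parent replicate 2 was added after seeing the data. Figures were drawn with matplotlib 3.10.9.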

Additional observations from a re-analysis of the deposited data

How the results depend on the processing

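Of 550 values of 25 named differences under the alternatives, 549 kept their direction. The exception was SREBF2 between SCP58 and the parent, at -0.39, which became 0.021 when its probe sets were averaged. Of 26 members, 9, 12 and 6 changed sign under some alternative in SCP51 against SCP58, SCP51 against the parent and SCP58 against the parent. In the main fit none of them was called and none was over 0.48 in size. SREBF2, among the 6, was called lower in SCP58 than in the parent with array weights. The median of the members relative to all genes ranged over the alternatives from 0.15 to 0.29, from -0.05 to 0.14 and from -0.26 to -0.15 in the same order, within the SD between arrays of 0.17 of its main value.

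For SCP51 against SCP58, the 2 called members became 1 with the mean of probe sets, 0 at a threshold of 0.01, 1 to 3 with single arrays left out and 8 with both SCP51 replicate 1 and parent replicate 2 left out. Those settings called 2.97%, 0.912%, 1.02% to 8.85% and 8.93% of all genes in the same order. The 2 became 3 with array weights (FASN added, beside 11.2% of all genes called) or 75th percentile centring (IDI1 added, beside 4.46%). With only 6 arrays the 2 were IDI1 and TM7SF2, beside 1.31% of all genes. The 2 called probe sets became 1 with no filter, 6 with array weights, 1 with only 6 arrays, 0 at 0.01, 0 to 5 with single arrays left out and 10 with both left out. The shares of all probe sets called under the alternatives are not given here. For SCP51 against the parent, the called member became 0 with array weights, only 6 arrays, 0.01 or both arrays left out, and 0 to 1 with single arrays left out. The called probe set became 0 with no filter, array weights, only 6 arrays or 0.01, and 0 to 1 with single arrays left out, where without SCP51 replicate 3 the 1 was a FADS2 set called lower. With both left out the 1 was a DHCR7 set, called higher. For SCP58 against the parent, array weights called 3 members, beside 9.94% of all genes, and 4 probe sets in place of 0. The cause of these changes was not tested, beyond fewer arrays or features in a fit.

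With the replicate number as a block, 1 member and 1 probe set were called for SCP51 against SCP58 and 0 of each for SCP51 against the parent. That fit called 1.54% and 1.23% of all genes in these comparisons. Same-numbered arrays did not deviate together (correlations of -0.22 to 0.13), so the numbers are not taken to pair the cultures. With 3 arrays per line, differences of the size of most members here were not resolved from the spread between arrays.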

Other observations

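Some member probe sets were near 1 level on most arrays and far higher on 1 or 2. A set of SREBF2 read 278 on SCP51 replicate 1 and 266 on SCP58 replicate 1, against 34.3 to 43.8 on the other 7 arrays. Among sets that did not pass the filter, 1 of EBP read 181 on SCP51 replicate 1 against 22.1 to 27.5 elsewhere, 1 of IDI1 read 151 against 19.0 to 25.6, and 1 of MVK read 126 against 12.5 to 19.2. None of these sets stood for its gene in the main comparisons. The SREBF2 set passed the filter, however, and so entered the alternative that averaged probe sets, where SREBF2 changed sign between SCP58 and the parent. In that comparison this set stood at 0.91 ± 0.94, while the other SREBF2 sets stood at -0.39 and -0.46.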
